A study of Rattus norvegicus with 120 samples.

Results

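The 120 animals of the study were split by the level of 1 probe set of Ythdf2, and the 30 animals with the lowest level were compared with the 30 with the highest. The groups were chosen by the measured level of probe set 1371960_at, after the mean of each S code, a number in the sample titles that the labels do not explain, had been subtracted and the overall mean added back. The remaining 60 animals form a middle group. All animals were 12-week-old male rats of the second generation (F2) of a cross between the SR/JrHsd and SHRSP strains, and no treatment was given in the labels. RNA of both eyes of an animal was hybridised to 1 Affymetrix array, so each value is the level in 1 animal on the log2 scale, on which 1 unit is a factor of 2. No label puts an animal in a low or high group, and which strain's allele an animal carried was not analysed here.

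Ythdf2 is a cytoplasmic protein that binds mRNAs methylated at the N6 position of adenosine, the m6A mark. In mammalian cells it brings the CCR4-NOT deadenylase complex to these mRNAs, whose tails are then shortened and which are degraded. A methyltransferase complex around Mettl3 and Mettl14 writes the mark, Fto and Alkbh5 can remove it, and other proteins of the YTH family read it. Mul1 is a ubiquitin ligase of the outer mitochondrial membrane, and Pla2g2a is a secreted phospholipase A2 that releases fatty acids from membrane phospholipids. In an F2 animal, genes close to each other on a chromosome are mostly inherited together.

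Ythdf2, Mul1 and Pla2g2a all lie on chromosome 5, and the 250 bases before the start of each gene are shown because the comparison is named for these genes. The sequences are RefSeq's, of the GRCr8 assembly, and are those of the reference genome, not of the animals. They lie at chr5:149690059-149690308 on the minus strand for Ythdf2, chr5:155935862-155936111 on the plus strand for Mul1 and chr5:156359475-156359724 on the plus strand for Pla2g2a. Each is written 5′ to 3′ on the strand of its gene. Capitals mark matches on either strand to TATAAA, the TATA box, to CCAAT, the box that NF-Y binds, or to GGGCGG, the core that Sp1 binds.
Ythdf2: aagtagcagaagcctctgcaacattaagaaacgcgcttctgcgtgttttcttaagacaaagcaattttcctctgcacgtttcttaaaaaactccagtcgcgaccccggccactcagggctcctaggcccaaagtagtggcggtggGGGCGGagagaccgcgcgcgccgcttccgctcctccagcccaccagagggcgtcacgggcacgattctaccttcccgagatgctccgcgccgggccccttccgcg
Mul1: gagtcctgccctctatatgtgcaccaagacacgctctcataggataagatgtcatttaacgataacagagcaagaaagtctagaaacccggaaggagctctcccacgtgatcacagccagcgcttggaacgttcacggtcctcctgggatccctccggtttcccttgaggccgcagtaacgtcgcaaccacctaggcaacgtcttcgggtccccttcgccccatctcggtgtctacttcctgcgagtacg
Pla2g2a: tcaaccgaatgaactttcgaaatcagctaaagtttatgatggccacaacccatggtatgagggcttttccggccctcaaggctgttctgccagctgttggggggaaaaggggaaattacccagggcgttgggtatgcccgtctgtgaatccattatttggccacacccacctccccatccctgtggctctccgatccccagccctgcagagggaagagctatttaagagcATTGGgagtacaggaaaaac
The Ythdf2 window held 24 CpG dinucleotides and 60.4% G and C, the Mul1 window 17 CpG and 55.2%, and the Pla2g2a window 6 CpG and 52.4%. GGGCGG was found in the Ythdf2 window, CCAAT on the opposite strand in the Pla2g2a window, and none of the 3 motifs in the Mul1 window. Of 33469 RefSeq promoters with a window of the same length, 30.5% held GGGCGG, 34.02% CCAAT and 12.9% TATAAA. The absence of a match says only that these letters are not in the window.

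The probe set that made the groups spanned more than 4 log2 units over the animals. The low animals lay at 5.54, 7.01 and 8.128 (lowest, median and highest), and the high animals at 9.15, 9.33 and 10.17. Their means were 7.08 ± 0.74 (SD, n = 30) and 9.40 ± 0.24 (SD, n = 30), with the middle animals at 8.62 ± 0.26 (SD, n = 60). These values are what the groups were selected on and were not tested. At the lower threshold the last animal inside the group was at 8.128 and the first outside at 8.142, and at the upper threshold the last outside was at 9.10 and the first inside at 9.15. The spread of the low animals was wider than that of the high animals and was broken by a gap: 21 animals lay at or below 7.26, none lay in the next 0.68 log2 units, and 9 low animals lay at or above 7.94.

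The other probe set of Ythdf2 did not separate the groups. On 1375695_at the low animals lay at 7.22, 7.97 and 8.52 and the high animals at 7.03, 8.15 and 8.47, with almost complete overlap. The difference, low minus high, was −0.10 (SE 0.08, 95% confidence interval −0.26 to 0.07), with an unadjusted p of 0.244 and an adjusted p of 0.9998 in limma's moderated test with Benjamini-Hochberg adjustment. Its means were 7.98 ± 0.26, 7.97 ± 0.32 and 8.08 ± 0.34 (SD) in the low, middle and high animals. The low and high groups are therefore groups on probe set 1371960_at. The files do not settle whether all Ythdf2 mRNA differed between them, and whether this probe set reads a part of the transcript, or a sequence, that differs between the strains was not tested.

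**Figure D1:**
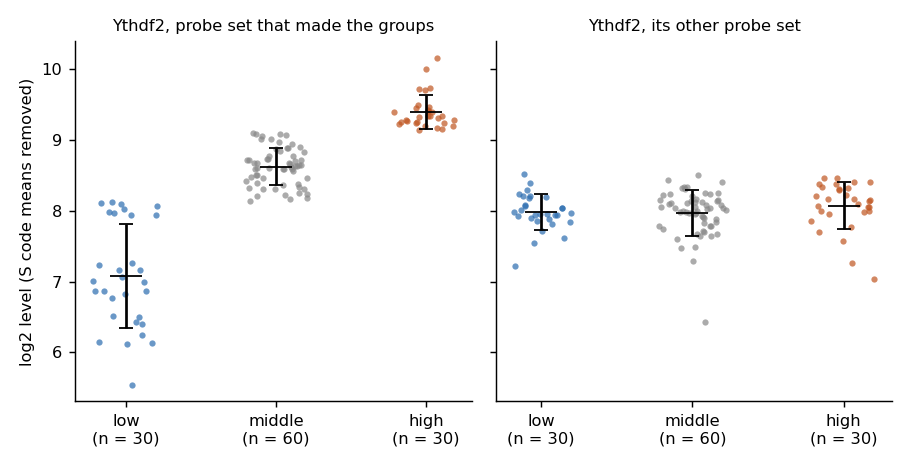
Level of the 2 Ythdf2 probe sets (log2, S code means removed) in the low, middle and high animals, 1 point an animal, with the mean and SD as bars. The groups were made on the left probe set, where the low animals reach from 5.54 to 8.128, and they overlap on the right one, with means of 7.98, 7.97 and 8.08.

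The arrays of the low and high animals were alike in the technical measures taken. Differences in array median, upper quartile and the 3′ to 5′ signal differences of the actin and GAPDH controls gave permutation p-values between 0.434 and 0.739 (two-sided, 100000 resamples, 0.739 after adjustment over the 4 measures). Every S code held low and high animals, 1 to 4 and 1 to 6 of them, and 13 of 22 L codes, a second unexplained number in the titles, held both. Of the 3 arrays that the titles mark as scanned again, 2 were of low animals, 1 of a middle animal and none of a high animal. Animal 63, a low animal with the lowest Ythdf2 level and an array scanned again, had a median correlation of 0.937 with the other arrays, and animal 15, a high animal, 0.970, against a median of 0.989. Lens, photoreceptor, pigment epithelium and cornea markers were high on all arrays, with Cryaa between 13.6 and 14.3 and Gnat1 between 12.2 and 12.9, as the label of whole eye has it.

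Between low and high animals, 59 of the 23325 other probe sets tested differed at an adjusted p under 0.05 (limma over all 120 animals with the S code as a factor), which is 0.253%. In the low animals 41 were lower (0.176%) and 18 were higher (0.0772%). At an unadjusted p under 0.05 there were 935. The median size of the difference was 0.27 log2 units in the 59 against 0.03 over all probe sets tested, and 4 reached a factor of 2. Without the S code as a factor 35 probe sets were called (0.15%), all of them among the 59, and with 5 principal components as covariates 0.45% of those tested. In the eyes of an animal, fewer cells of a type and less RNA per cell cannot be told apart.

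The differing genes that could be named lay almost entirely on the chromosome of Ythdf2. Of the 59 called probe sets, 23 had no single symbol and were not placed. With 1 probe set a gene, that of highest mean, 29 of 12326 genes were called (0.235%). On chromosome 5 they were 28 of 801 genes (3.5%), 20 lower and 8 higher in the low animals, and on all other chromosomes 1 of 11482 (0.00871%). At an unadjusted p under 0.05, 15.98% of the genes of chromosome 5 differed, against 2.3% to 5.8% on each other chromosome with more than 2 genes tested. Without the S code as a factor the count on chromosome 5 was 15, and with 5 principal components as covariates it was 47.

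In gene order the called genes lay on both sides of Ythdf2, over a stretch from Ttc22, 584 RefSeq genes before it, to Cptp, 624 genes after it, of the 2639 on the chromosome. Within 100 genes of Ythdf2, 11 of 90 genes were called (12.2%), and beyond 100 and up to 300 genes after it 7 of 83 (8.43%). On the other side, beyond 100 and up to 300 genes before it, 2 of 73 were called (2.74%). Beyond 300 and up to 600 genes the calls were 5 before it (4.85%) and 2 after it (1.92%), and beyond 600 genes after it 1 of 32 was called. Of the 315 genes more than 600 places before Ythdf2, none was called by limma and 20 had an unadjusted p under 0.05 (6.35%). Order is that of the reference strain in GRCr8.

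**Figure D2:**
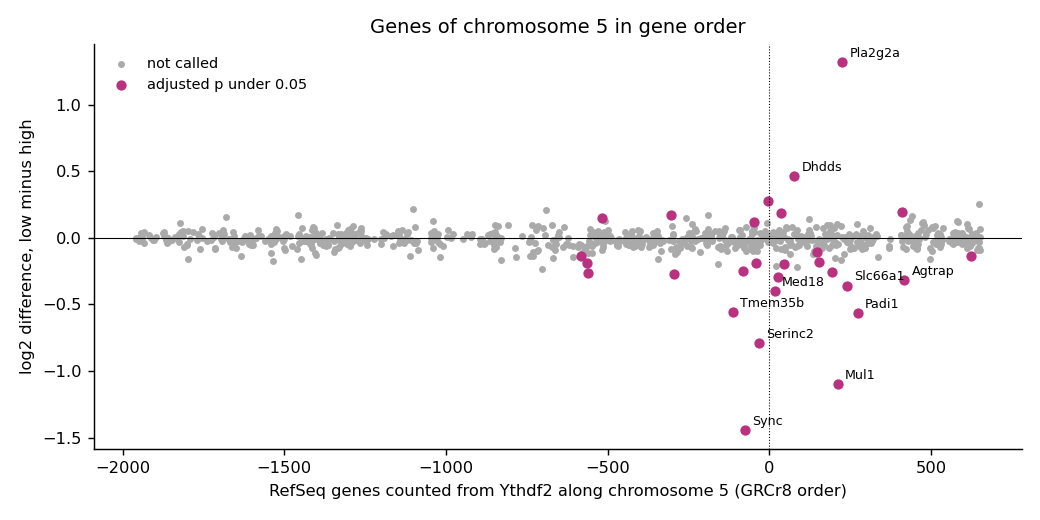
Difference between low and high animals (log2, low minus high) for the genes of chromosome 5 against their place in RefSeq gene order, counted from Ythdf2 at 0. Pink points passed an adjusted p of 0.05, and those past 0.3 log2 units are named. They lie between 584 genes before and 624 genes after Ythdf2, on both sides of 0. Within 100 genes of Ythdf2, called genes included, the median size of the difference was 0.048 and 31.1% of genes had an unadjusted p under 0.05 (limma).

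Sync had the largest difference of the 59 called probe sets. It encodes syncoilin, a protein of the intermediate filament family found in muscle. The low animals lay at 6.29, 8.21 and 9.15 and the high animals at 8.61, 9.54 and 10.27. Of the low animals, 23 lay below every high animal, and 27 high animals lay above every low one. The difference was −1.45 (SE 0.11), a factor of 2.72, with an adjusted p of 6.93e-20, and it had the same sign in all 10 S codes. Its second probe set, 1378233_at, was also lower, by −0.25 (SE 0.05). The 10 skeletal muscle markers had a median difference of 0.00, between −0.06 and 0.05, with 8 lower and 2 higher in the low animals. None was called and none had an unadjusted p under 0.05, which is near the shares of all genes tested, 0.235% and 4.66%. Whether the amount of muscle has a part in the Sync difference was not tested.

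Serinc2, a membrane protein of the serine incorporator family, had little overlap between the groups. Its low animals lay at 4.98, 5.63 and 6.22 and its high animals at 6.08, 6.44 and 6.75. Of the low animals 29 were below every high animal, and 24 high animals were above every low one. The difference was −0.79 (SE 0.06, adjusted p 6.65e-21). Sync lies 75 genes before Ythdf2 and Serinc2 32 genes before it.

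Mul1, 212 genes after Ythdf2, fell in the low animals. They lay at 4.04, 5.02 and 5.86, and the high animals at 4.44, 6.22 and 6.73. Most high animals, 23 of 30, were above every low animal, but some were not, and the lowest of them lay below all but 4 low animals. The difference was −1.10 (SE 0.13, adjusted p 1.29e-10), a factor of 2.14. The 15 other genes measured of mitochondrial dynamics and mitophagy, the processes in which Mul1 acts, had differences between −0.04 and 0.04. Opa1, a fusion protein of the inner membrane, was at −0.04 (SE 0.04), Mfn2, a fusion protein of the outer membrane, at 0.02 (SE 0.03), and Pink1, a kinase of mitophagy, at 0.02 (SE 0.04). None of the 15 was called or had an unadjusted p under 0.05, which is near the shares of all genes, 0.235% and 4.66%.

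Pla2g2a, 225 genes after Ythdf2 and 13 after Mul1, rose where Mul1 fell. The low animals lay at 8.71, 9.37 and 9.77 and the high animals at 7.23, 7.92 and 9.37. Of the low animals 15 were above every high animal, and 25 of the high animals were below every low one. The difference was 1.32 (SE 0.13, adjusted p 1.54e-14), a factor of 2.49. Other phospholipases of the same secreted family did not pass the test: Pla2g2f was at −0.16 (SE 0.04, adjusted p 0.133), Pla2g2c at 0.09 (SE 0.05) and Pla2g5 at 0.01 (SE 0.03). Of the 12 other phospholipase A2 and eicosanoid genes tested, Pla2g2a left out, none was called, which is near the 0.235% of all genes. Among them 4 had an unadjusted p under 0.05, against 4.66% of all genes, and all 4 were lower in the low animals. They included Pla2g2f, Ltc4s, the leukotriene C4 synthase, at −0.10 (SE 0.03) and Alox15, a lipoxygenase, at −0.14 (SE 0.06). Pla2g2f, Pla2g2c and Pla2g5 lie on chromosome 5, where 15.98% of genes had an unadjusted p under 0.05.

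**Figure D3:**
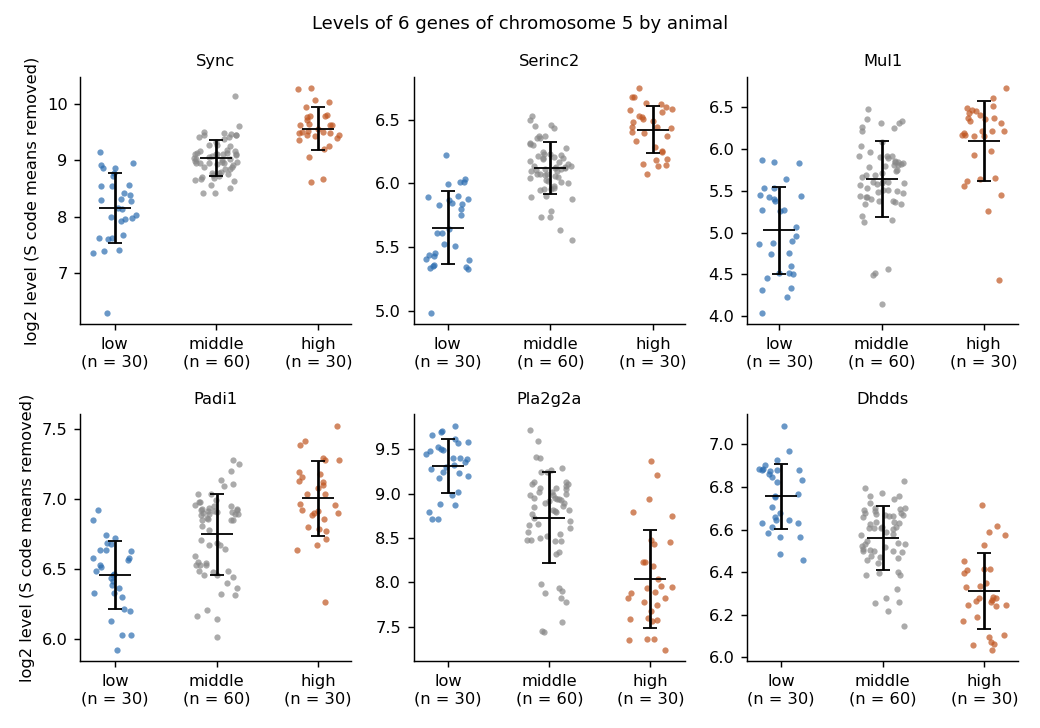
Levels (log2, S code means removed) of Sync, Serinc2, Mul1, Padi1, Pla2g2a and Dhdds in the low, middle and high animals, 1 point an animal, with the mean and SD as bars and a separate vertical axis for each gene. Sync, Serinc2, Mul1 and Padi1 are lower and Pla2g2a and Dhdds higher in the low animals, with the middle animals between them.

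Of the 12 named genes of chromosome 5, 9 were lower and 3 higher in the low animals. Padi1, an enzyme that turns arginine into citrulline in epithelial proteins, lay at 5.92, 6.48 and 6.92 in the low animals and at 6.27, 7.003 and 7.52 in the high ones, and differed by −0.56 (SE 0.07). Tmem35b, a transmembrane protein, also differed by −0.56 (SE 0.07), and 19 low animals were below every high one. Med18, a subunit of the Mediator complex of RNA polymerase II, lay at 6.30, 6.99 and 7.30 against 7.04, 7.38 and 7.63, a difference of −0.40 (SE 0.04) with 24 high animals above every low one. In these genes the groups overlapped in part, and the adjusted p was 9.16e-09 or lower.

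Dhdds, a subunit of the enzyme that makes the long prenyl chain of dolichol and a gene mutated in a human form of retinitis pigmentosa, was higher in the low animals. They lay at 6.46, 6.76 and 7.09 and the high animals at 6.03, 6.28 and 6.72, so that 25 high animals were below every low one. The difference was 0.46 (SE 0.04, adjusted p 1.08e-15). Mecr, the last reductase of mitochondrial fatty acid synthesis, was also higher in the low animals, at 0.27 (SE 0.05, adjusted p 1.65e-05). It lies 5 genes before Ythdf2. The mean of Mecr was 6.51 in the 21 low animals below the gap, 6.24 in the other 9 low animals and 6.31 in the middle animals. Its rise was thus not seen in those 9.

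The remaining named genes differed less. Slc66a1, which exports cationic amino acids from lysosomes, was at −0.36 (SE 0.05) on a probe set whose name marks probes shared with other transcripts. Its other probe sets were at 0.13 (SE 0.04, adjusted p 0.167) and 0.01 (SE 0.03), so its direction rests on 1 of 3 probe sets. Smpdl3b, a phosphodiesterase anchored in the plasma membrane, was at −0.29 (SE 0.05). Its mean was 5.72 in the 21 low animals below the gap, 5.96 in the other 9 and 5.98 in the middle animals. Agtrap, which binds the angiotensin II receptor and lowers its signalling, was at −0.32 (SE 0.08, adjusted p 0.031) and at −0.42 (SE 0.10) on its other probe set. Agtrap kept its direction but lost its call under 10 of 25 alternatives.

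The other 16 called genes of chromosome 5 had smaller differences, from −0.27 for Ppih to 0.20 for Plod1, and 11 of them were lower in the low animals. They included Lrrc42 at −0.26 (SE 0.04), Rap1gap, which switches off the small GTPase Rap, at −0.26 (SE 0.04), and Col16a1, a collagen chain, at −0.19 (SE 0.03). Stx12, a syntaxin of endosomes, was at 0.18 (SE 0.03) and Khdrbs1, an RNA-binding protein of splicing, at 0.12 (SE 0.02). These 5 were picked as examples after their values were seen. Over all 59 called probe sets, 36 had a difference of the same sign within each of the 10 S codes and 55 in at least 9 of them. The same animals gave the calls, so these signs, and those given for single genes, are no separate test.

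Probe sets of the same gene disagreed elsewhere on the chromosome, in genes picked after their values were seen. Ppih, a cyclophilin of the spliceosome, was lower in the low animals on its brighter probe set (−0.27, SE 0.03) and higher on the other (0.49, SE 0.06), with adjusted p-values of 9.16e-09 and 1.55e-09. Epb41, a protein of the membrane skeleton 2 genes before Ythdf2, was at −0.03 (SE 0.03) on its brighter probe set and at −0.43 (SE 0.06, adjusted p 4.11e-08) on 1392607_at. Cdc42, a small GTPase of the actin skeleton, passed on 1370825_a_at at −0.34 (SE 0.07). Czib and Clic4 also passed only on a probe set other than the brightest. For Ppih the array gives no single direction of the mRNA level, and for Epb41 the size differs between its probe sets.

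Of the 10 nearest genes measured, 5 on each side of Ythdf2, 2 were called on their brightest probe set, Mecr and Med18, against 0.235% of all genes. Epb41 also lies among them and passed only on its other probe set, at −0.43. Oprd1, an opioid receptor and the neighbour of Ythdf2, was at 0.00 (SE 0.05), Taf12, a subunit of the general transcription factor TFIID, at 0.02 (SE 0.03), and Phactr4, a regulator of protein phosphatase 1, at 0.00 (SE 0.03). Srsf4, a splicing factor, was at −0.03 (SE 0.02), and Rcc1, the exchange factor of the GTPase Ran, at −0.04 (SE 0.03). Trnau1ap, which works in selenocysteine incorporation, was at 0.04 (SE 0.02, unadjusted p 0.0312) and did not pass. Ptpru, a receptor tyrosine phosphatase, had an unadjusted p of 0.00175 at 0.11 (SE 0.04) and did not pass either (adjusted p 0.392).

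The gene called on another chromosome was Adcy3, an adenylyl cyclase, on chromosome 6. The low animals lay at 6.96, 7.23 and 7.41 and the high animals at 6.93, 7.09 and 7.28. The groups overlapped over most of their range, with 9 low animals above every high one. The difference was 0.12 (SE 0.03, adjusted p 0.029), a factor of 1.09, with the same sign in all 10 S codes. It lost its call under 9 of 26 alternatives. The count on other chromosomes lay between 0 and 2 when each S code was left out in turn, and was 2 without animal 63, 2 without the rescanned arrays and 5 with principal components as covariates.

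Of 21 writers, erasers and other readers of m6A 18 could be tested, and none was called or had an unadjusted p under 0.05. Over all genes tested 0.235% were called and 4.66% had an unadjusted p under 0.05. Of the 18 only Virma, a writer, lies on chromosome 5, and on the other chromosomes 0.00871% of genes were called. No call among 18 genes is near these shares and is no result about m6A genes. Of the writers, Mettl3, the catalytic subunit, lay at 8.05, 8.65 and 8.86 in the low animals and at 8.43, 8.62 and 9.04 in the high ones, a difference of 0.00 (SE 0.04). Its partner Mettl14 was at 0.03 (SE 0.05) and Wtap, which recruits the complex, at −0.08 (SE 0.05), the largest difference in the RNA lists.

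Of the erasers, Fto was at 0.00 (SE 0.03) and Alkbh5 at −0.02 (SE 0.03). Of the other YTH readers, Ythdf1 was at −0.02 (SE 0.03), Ythdf3 at 0.03 (SE 0.04) and the nuclear Ythdc1 at 0.02 (SE 0.02).

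The CCR4-NOT deadenylase and the decapping enzymes carry out the decay that Ythdf2 starts. Of the 13 subunits and partners of the CCR4-NOT deadenylase tested and the 18 genes of decapping and decay, none was called. Over all genes tested the called share was 0.235%, and no call among so few genes is near that share. Cnot1, the scaffold that Ythdf2 binds, was at 0.00 (SE 0.03) and Cnot7, a deadenylase subunit, at 0.04 (SE 0.06). Over all 49 RNA genes tested the 95% confidence intervals of the brightest probe sets lay between −0.18 and 0.20 log2 units. Other probe sets of these genes can have wider intervals, such as −0.35 to 0.19 for 1395561_at of Hnrnpa2b1, an RNA-binding protein of the reader list. The methylation of mRNAs and their decay rates were not measured by these arrays.

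**Figure D4:**
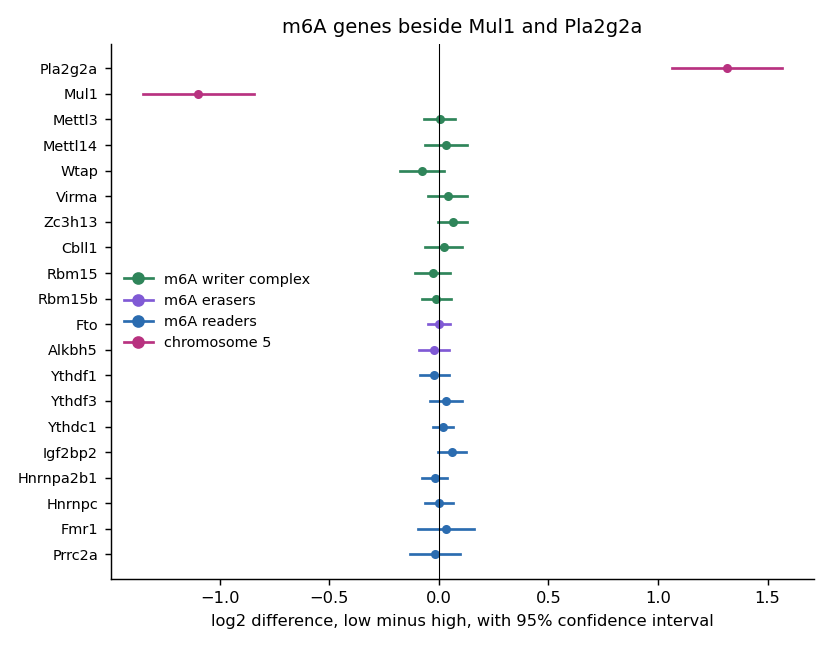
Difference between low and high animals (log2, low minus high) with its 95% confidence interval for the 18 tested m6A writers, erasers and readers, and for Mul1 and Pla2g2a. The m6A genes lie between −0.08 and 0.06, against −1.10 for Mul1 and 1.32 for Pla2g2a.

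The middle animals enter the contrast only through the shared estimates of spread and of the S codes, and allow the same relation to be read in other animals. Among these 60 the level of probe set 1371960_at ran from 8.14 to 9.10, and 3 of 23325 probe sets followed it at an adjusted p under 0.05 (0.0129%), with 977 at an unadjusted p under 0.05. Pla2g2a was one, at −1.36 log2 units per log2 unit (SE 0.19, adjusted p 1.15e-04). The others, 1393455_at at 0.53 (SE 0.09) and 1372642_at at −0.51 (SE 0.09), have no gene symbol in the annotation used. All 3 ran in the direction that the low and high animals gave.

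The other genes named by the slope did not pass. Sync was at 0.67 (SE 0.14, adjusted p 0.116), Dhdds at −0.30 (SE 0.07, adjusted p 0.208), Agtrap at 0.57 (SE 0.13, adjusted p 0.208) and Plod1, a lysyl hydroxylase of collagen also higher in the low animals, at −0.31 (SE 0.07, adjusted p 0.207). Fadd, Tm4sf1 and Crtap, which lie on other chromosomes, had adjusted p-values of 0.152 to 0.305. Of the 59 probe sets called between low and high animals, 50 had a slope of the matching sign in the middle animals, against 48.5% of all probe sets tested, and 28 had an unadjusted p under 0.05, against 4.19% of all.

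**Figure D5:**
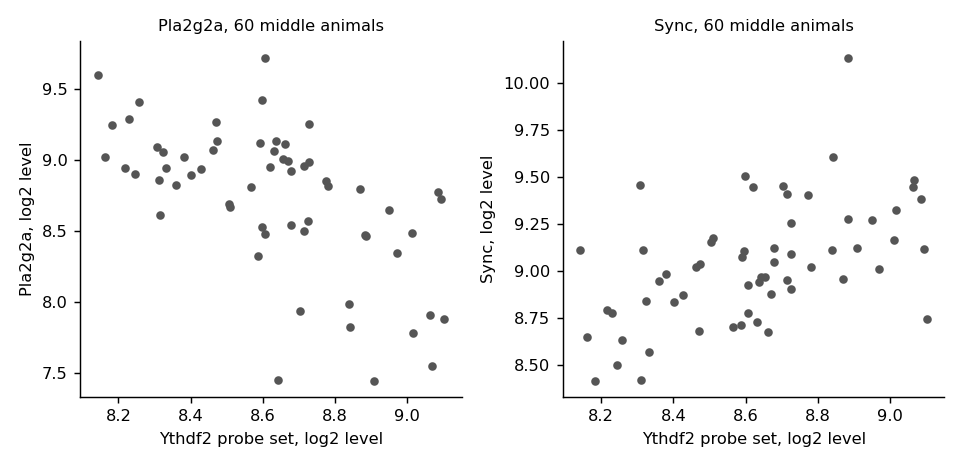
Level of Pla2g2a (left) and Sync (right) against the level of Ythdf2 probe set 1371960_at in the 60 middle animals, all log2 with S code means removed. Pla2g2a falls along the axis, with a slope of −1.36, and Sync rises, with a slope of 0.67 that did not pass the adjusted threshold.

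The low and the high animals were each set against the middle animals as well. Between low and middle animals 24 probe sets were called (0.103%), 20 of them lower in the low animals, and between middle and high animals 13 (0.0557%). The comparisons share the middle animals. Low minus middle, Sync was at −0.89 (adjusted p 4.32e-11), and middle minus high at −0.55 (adjusted p 0.00112), so it rose from low to high animals. The values that follow are given in the same order. Serinc2 was at −0.47 and −0.32, Pla2g2a at 0.57 and 0.75, and Mul1 at −0.62 (adjusted p 4.67e-04) and −0.48 (adjusted p 0.0739). The count between middle and high animals changed with the arrays and the model used. It was 61 without animal 63, 31 without animal 15 and 199 without both, when low against high gave 66. With all arrays kept, it was 5 without the S code as a factor and 34 with 5 principal components as covariates. The cause was not tested.

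The 25 gene lists examined leave out Mul1 and Pla2g2a, and none held a called gene. Of all genes tested 0.235% were called, and 0.00871% of those on chromosomes other than 5. No call is thus near the share and is no result about the lists. They covered the RNA genes above, 14 lists of cell types of the eye, its surroundings and blood and 6 of other kinds, with 213 genes tested, of which 20 had an unadjusted p under 0.05, against 4.66% of all genes. The medians of the cell type lists lay between −0.06 (lacrimal and Harderian gland) and 0.04 (cone photoreceptor), beside a median of −0.01 over all genes. Rods were at 0.02, lens at −0.02, cornea and conjunctiva at −0.04, pigment cells at −0.05 and microglia and macrophages at −0.01.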

How the data were processed

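Gene expression was measured in the eyes of 120 F2 rats, 1 array per animal. The authors deposited log2 values made by RMA (robust multi-array averaging), per the submitters' processing notes, which give no version. The genome build and probe annotation behind them are not given in the sources used here. RMA aligns the arrays, so a shift shared by most genes can be hidden, and a probe that fits the sequence of one strain poorly can read as a difference in level.

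Probe sets were named from the platform annotation, updated by Entrez number with RefSeq's GRCr8 gene table, which also gave chromosome and gene order. Beside 57 controls, 20832 probe sets had 1 symbol and 436 had several, which were left unnamed. Probe sets were tested if their mean reached 4.28, the lower quartile (25%) of the whole table.

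Groups were made on 1371960_at as the report states. The log2 values were fitted with limma 3.58.1 in R 4.3.3 over all 120 animals, with group and S code as factors and Benjamini-Hochberg adjustment over 23325 probe sets. The slope was fitted in the 60 middle animals. The script was tested on simulated data. The labels put all animals in 1 group, so low and high are groups by a measured level. The number of arrays limits the precision and the p-values cover differences between animals and between arrays alike. The closest pair of arrays differed by an SD of 0.173, so none was taken for a repeat.

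The members, lists and tests were chosen with earlier results of these data known. Genes were named by rule: all Ythdf2, Mul1 and Pla2g2a probe sets, the 12 largest called differences on chromosome 5 and up to 12 elsewhere, the 5 nearest measured genes on each side of Ythdf2, the m6A genes tested, called list members, and the 8 genes of smallest p for the slope. Within a gene the probe set of highest mean was used. Alternatives changed the filter, the S code term, the group size, the arrays used, the covariates and the threshold. Promoter sequences are RefSeq's.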

Additional observations from a re-analysis of the deposited data

How the results depend on the processing

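Of 14 named genes that were called, 11 kept direction and call under all alternatives run and none reversed. Plod1 lost its call under 6 of 26, Agtrap under 10 of 25 and Adcy3 under 9 of 26. Leaving out each S code in turn gave 0.18% to 0.249% of probe sets called, 19 to 29 called genes on chromosome 5 and 0 to 2 elsewhere. Without the S code as a factor 0.15% of probe sets were called, and the counts were 15 on chromosome 5 and 0 elsewhere, with 5 between middle and high animals and 10 for the slope. With 5 principal components these were 0.45%, 47 and 5, with 40 between low and middle animals, 34 between middle and high animals and 7 for the slope. The single call elsewhere became 0 with groups from deposited values, with only low and high animals and at an adjusted p of 0.01, and 2 with a linear term over all animals, without the rescanned arrays, with actin and GAPDH covariates and without animal 63. Between middle and high animals the count was 71 without the rescanned arrays, 199 without animals 63 and 15, 61 without 63, 31 without 15 and 8 at an adjusted p of 0.01. Leaving out 63 or 15 alone was added after seeing the data. The cause of these shifts was not tested. No paired analysis was possible because the labels put all animals in 1 group and number each animal once. Signal over background is not in the values, and probe sets near the filter are measured with less contrast.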

Other observations

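Genes of the interferon response and immediate early genes leaned to one side without any call. The 10 interferon genes tested had a median difference of 0.16, low minus high, with 9 higher in the low animals. None had an unadjusted p under 0.05, against 4.66% of all genes. Mx1, an antiviral GTPase, was at 0.41 (SE 0.21) and Isg15, a ubiquitin-like protein, at 0.25 (SE 0.15). The mean level of this list lay at 6.85, 7.52 and 8.36 in the low animals and at 6.61, 7.26 and 8.32 in the high ones (lowest, median and highest), so the groups overlapped over almost their whole range.

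The 10 immediate early genes tested were all lower in the low animals, with a median of −0.18, and 5 had an unadjusted p under 0.05, against 4.66% of all genes. Dusp1, a phosphatase of MAP kinases, was at −0.32 (SE 0.09, adjusted p 0.103) and Fos, a transcription factor subunit, at −0.40 (SE 0.19). The mean level of the list lay at 6.29, 7.12 and 7.47 (lowest, median and highest) in the low animals and at 6.99, 7.19 and 8.22 in the high ones, so the medians were close and the groups overlapped. The 8 heat shock chaperones tested were also all lower, with a median of −0.04, and 3 had an unadjusted p under 0.05.

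Of the 59 called probe sets, 23 could not be named, 16 lower and 7 higher in the low animals. The low animals lay at 6.93, 7.69 and 8.28 on 1393455_at and the high animals at 7.83, 8.76 and 9.11, a difference of −1.03 (SE 0.07, adjusted p 8.14e-26), the smallest adjusted p of all probe sets tested. Of the low animals 20 lay below every high one, and 29 high animals lay above every low one. On 1396714_at the difference was −0.999 (SE 0.17), on 1379023_at 0.65 (SE 0.15) and on 1372642_at 0.43 (SE 0.06). The mean of 1396714_at over all animals was 4.37, close to the filter of 4.28. Its mean in the low animals was 3.76, below that filter, so the size of its difference rests in part on levels under the filter.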
